A study of Mus musculus with 48 samples.

Results

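Alpha cells of mice given doxycycline were profiled around the clock in 12 libraries of poly(A) RNA, 2 at each of 6 zeitgeber times (ZT, hours after lights on) spaced 4 h apart. They are the libraries whose titles name doxycycline and alpha cells, 12 of the 48 in the series. The other 36 hold beta cells of doxycycline mice and both cell types of control mice, 12 libraries each. Of these, the control alpha cells and the doxycycline beta cells enter comparisons here.

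All mice were males of 6 to 8 weeks carrying TET-DTA, Insulin-rtTA, proGcg-Venus, RIP-Cherry and PER2::Luc. The Venus reporter marks glucagon cells and the Cherry reporter insulin cells, so that both could be sorted from dissociated islets by flow cytometry. PER2::Luc fuses the clock protein PER2 to luciferase. Insulin-rtTA and TET-DTA together let doxycycline switch on diphtheria toxin A under insulin promoter control, so beta cells are ablated and the beta cells sorted afterwards are survivors. The drug was given at 300 mg in water sweetened with 2% sucrose, and control mice of the same genotype drank 2% sucrose water alone, so the drug and the loss of beta cells cannot be told apart. Lights were on for 12 h and off for 12 h, and food was offered only at night from 10 days before the experiment. A share of the animals was kept under inverted light and feeding cycles for 2 weeks, and the labels do not tie this to single libraries. Nor do they say that the 2 libraries of a time came from separate animals, so p-values measure the spread between these libraries, which may be technical.

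The circadian clock is a transcriptional loop. BMAL1 (gene Arntl) pairs with CLOCK or NPAS2 on E-box elements and drives the Per and Cry repressors, the Rev-erb receptors Nr1d1 and Nr1d2, and the PAR bZIP factors Dbp, Tef and Hlf, which act through D-box elements. The Rev-erbs repress Arntl and Npas2. Alpha cells secrete glucagon, the hormone that raises blood glucose between meals, and islet cells carry this clock.

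The sequences below show E-boxes (CACGTG) and D-boxes (TTATGTAA), the elements that BMAL1 and the PAR bZIP factors are known to bind, before the starts of 4 rhythmic genes described further on. They come from the RefSeq promoter table on GRCm38.p6, are written 5′ to 3′ on the gene's strand, and have the motif in capitals. Amdhd2 is shown as the called gene outside the clock with the most E-boxes, Cry1 and Tef as clock genes with 1 each, and Per3 as a clock gene with D-boxes.
Amdhd2: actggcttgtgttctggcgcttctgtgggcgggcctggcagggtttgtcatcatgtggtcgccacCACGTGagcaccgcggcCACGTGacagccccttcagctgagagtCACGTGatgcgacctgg
Cry1: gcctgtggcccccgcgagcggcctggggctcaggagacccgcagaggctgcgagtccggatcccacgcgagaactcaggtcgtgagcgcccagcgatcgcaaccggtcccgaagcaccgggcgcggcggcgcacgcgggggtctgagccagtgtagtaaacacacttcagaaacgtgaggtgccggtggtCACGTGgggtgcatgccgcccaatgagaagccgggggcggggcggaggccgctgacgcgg
Tef: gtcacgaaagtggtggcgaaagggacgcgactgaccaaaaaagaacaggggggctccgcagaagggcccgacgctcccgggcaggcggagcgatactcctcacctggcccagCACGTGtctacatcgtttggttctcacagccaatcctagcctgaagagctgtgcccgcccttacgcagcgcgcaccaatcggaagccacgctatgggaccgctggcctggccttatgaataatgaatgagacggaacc
Per3: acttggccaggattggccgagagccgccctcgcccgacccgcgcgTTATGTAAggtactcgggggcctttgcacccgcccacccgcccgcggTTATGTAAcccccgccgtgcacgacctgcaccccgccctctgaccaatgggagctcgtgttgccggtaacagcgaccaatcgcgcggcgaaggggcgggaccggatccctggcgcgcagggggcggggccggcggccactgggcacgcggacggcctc
The windows are chr17:24163740-24163865 (minus strand), chr10:85185055-85185304 (minus), chr15:81811164-81811413 (plus) and chr4:151044666-151044915 (minus). Counted from the RefSeq start, the E-boxes of Amdhd2 begin 67, 50 and 23 bases before it, that of Cry1 60 and that of Tef 138 bases before. The Amdhd2 window is shortened at both ends and stops before that start, and the E-box nearest to it lies inside the gene bounds of the deposited tables. The D-boxes of Per3 begin 205 and 158 bases before the RefSeq start. Searched on both strands in the 250 bases before each start, the E-box was present in 6.02% of all 32851 windows, in 7.85% of the 14722 windows of genes tested here, and in 30 of 290 windows (10.3%) of genes called rhythmic. At least 3 such E-boxes stood in 13 windows of tested genes, and among the called genes only in that of Amdhd2. The D-box was present in 0.819% of all windows, in 0.489% of those of genes tested and in 2 of the 290 (0.69%). Windows were found for 215 of the 289 symbols called. A match is a description of these letters and not a measured binding site.

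The estimated counts of a library summed to 18746200 to 25967400 in the 5 libraries of the earlier sequencing run (replicate 1 at ZT4 to ZT20) and 37396000 to 55987900 in the 7 of the later run (replicate 2 at ZT4 to ZT20 and both at ZT0). The run is read from a code in the library titles, and the number after it is read as the lane. In both runs the ZT4 and ZT8 libraries carried lane 6. Those at ZT12 to ZT20 carried lane 5 in the earlier run and lane 7 in the later. Those at ZT0 carried lanes 6 and 5. Lane thus follows time of day in part, and it was not a term of any fit. The part of lane in the rhythms was not tested. Gcg, the defining alpha cell gene, took 24.8 to 39.6% of all counts, and Ins2, that of beta cells, 0.0191 to 0.213%. Run was a term of the rhythm fit and passed the test for 976 of 16017 genes (6.09%). The summed level of 15 acinar genes ran from 15.9 to 6954 CPM and was highest at ZT8 replicate 2 (6954), ZT0 replicate 1 (4455) and ZT4 replicate 2 (1183).

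A 24 h cosine and sine were fitted to each gene with edgeR. The amplitude is given in log2 units from mean to peak with its SE, the peak in ZT, and levels in CPM, the counts of a gene relative to the TMM-scaled size of its library. Summed levels of gene lists are CPM of the library total without TMM scaling. After Benjamini-Hochberg adjustment, 290 of 16017 genes had a daily rhythm (1.81%, threshold 0.05), and 2824 (17.6%) had an unadjusted p under 0.05. The rhythmic genes peaked mainly in the day. Of the 290, 193 peaked in the light phase (1.2% of genes tested) and 97 in the dark (0.606%), so 66.55% were daytime genes against 49.1% among all genes tested. The 2 h from ZT6 to ZT8 alone held 93 of them, or 32.07%, against 11.8% of all genes. Lane also set ZT4 and ZT8 apart from ZT12 to ZT20 in both runs, and its part in these peak times was not tested. A smaller group peaked at night, with 34 from ZT18 to ZT20 and 26 from ZT20 to ZT22. The median amplitude of the called genes was 0.57, a 2.19-fold difference between peak and trough, and 38 had an amplitude of at least 1. Just inside the threshold stood Hnrnpa2b1 (adjusted p = 0.0488) and Creld2 (0.049), and just outside it Pink1 (0.0504) and Snhg3 (0.0504).

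**Figure D1:**
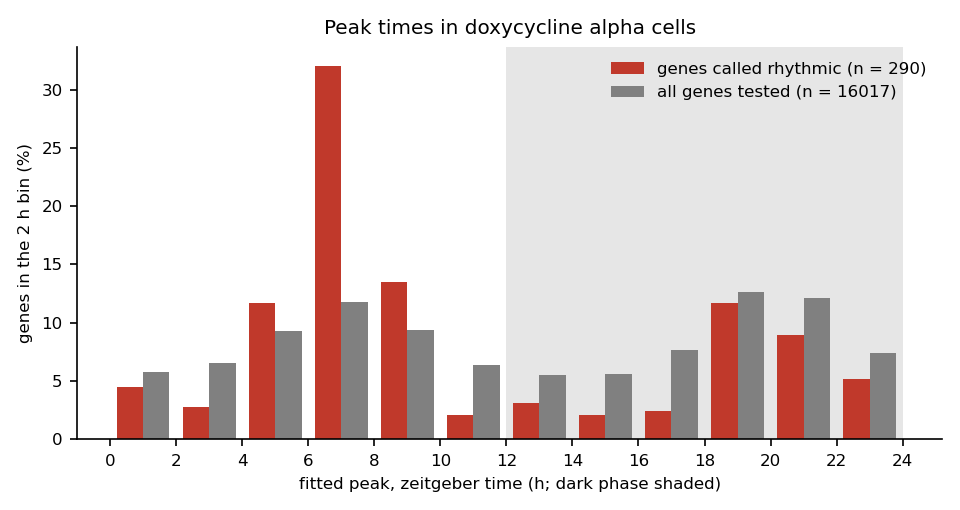
Share of genes (%, vertical axis) by fitted peak in 2 h bins of zeitgeber time (horizontal axis), for the 290 called genes (red) and all 16017 tested (grey), with the dark phase shaded. The called genes reach 32.07% at ZT6 to ZT8, where all genes stand at 11.8%.

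The number of calls rested on single libraries. Without ZT20 replicate 1 only 8 genes passed, without ZT8 replicate 2 57, without ZT12 replicate 2 110, without ZT16 replicate 1 124, without ZT4 replicate 1 130, without ZT12 replicate 1 149 and without ZT8 replicate 1 161. Peak times were steadier than calls. Fitted in each run alone, 286 of the 290 genes (98.6%) peaked within 3 h in both runs, against 41.0% of all genes, though the 290 were chosen on both runs together. In both runs the lane also changed between ZT8 and ZT12. All 15 acinar genes had their fitted peak in the light phase, with none called and a median amplitude of 1.13. With the acinar level as a covariate, added after the data were seen, 143 genes passed, and all 24 genes with the lowest p outside the clock kept their call (adjusted p from 0.00704 to 0.0259). Of 62 called genes chosen by the naming rule, 13 lost it, and the values of those described are given with them.

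The core clock held the most called genes of the 25 lists: 12 of its 20 were called, 6 peaking in each phase, with a median amplitude of 1.04 over all 20 against 0.19 over all genes. Nr1d1 (chr11:98767932-98775333, minus strand, GRCm38, gene bounds as the deposited tables give them), encoding the repressor REV-ERBα, had the lowest p of all genes. It stood at 12.3 and 8.69 at ZT0, 18.8 and 13.8 at ZT4, 72.1 and 62.5 at ZT8, 62.3 and 61.6 at ZT12, 16.8 and 12.6 at ZT16 and 7.46 and 7.54 at ZT20, in CPM. Both libraries at ZT8 and ZT12 lay above every other, by more than 3-fold, and the amplitude was 1.66 ± 0.15 with a peak at ZT 9.6 ± 0.334 h (adjusted p = 0.00238). Thra overlaps Nr1d1 on the other strand and was also called (adjusted p = 0.0316), and the kit named in the labels does not mark strand, so their reads could not be told apart. Arntl (chr7:113207465-113314126, plus strand) ran opposite. It stood at 16.6 and 25.6 at ZT0, 12.9 and 13.4 at ZT4, 8.38 and 9.02 at ZT8, 2.01 and 1.45 at ZT12, 4.44 and 7.05 at ZT16 and 15.3 and 15.2 at ZT20, in CPM, with both ZT12 libraries below all others. Its peak fell at ZT 0.355 ± 0.541 h with an amplitude of 1.41 ± 0.21 (adjusted p = 0.0178).

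The other called clock genes were spread over the day. Npas2, the alternative partner of BMAL1, peaked with Arntl at ZT 1.75 ± 0.479 h. It was rare, at 2.72 and 5.84 CPM at ZT0 and 0.0853 and 0.0965 CPM at ZT16. Nfil3, a repressor acting on D-boxes, peaked at ZT 0.835 with an amplitude of 1.12 (adjusted p = 0.0399, and 0.0614 with the acinar covariate). The PAR bZIP gene Dbp, whose product activates D-boxes, reached 101 and 92.8 CPM at ZT12 from 13.0 and 9.72 at ZT0, with an amplitude of 1.50 ± 0.20 and a peak at ZT 11.1 ± 0.508 h. Sphk2 overlaps Dbp on the other strand and was not called (adjusted p = 0.943). Nr1d2, encoding REV-ERBβ, peaked at ZT 11.6 ± 0.363 h and Tef at ZT 12.8 ± 0.375 h, with amplitudes of 1.37 and 0.97. Among the repressors, Cry2 peaked at ZT 13.5, Per3 at ZT 14.1, Per2 at ZT 18.5 and Cry1 at ZT 21.7. The calls of Cry2 (adjusted p = 0.0332) and Per2 (0.0391) were lost in 6 and 9 of the 12 fits that left out 1 library. That of Nfil3 was lost in 8, and the adjusted p of Cry2, Per2 and Nfil3 reached 0.117, 0.143 and 0.125. The 2 libraries of Per2 at ZT0 were far apart, at 18.5 and 65.7 CPM. Cry1 stood at 23.1 and 51 at ZT0, 19.1 and 27.3 at ZT4, 13.6 and 7.62 at ZT8, 12.5 and 8.64 at ZT12, 32.8 and 20.9 at ZT16 and 47.8 and 51.9 at ZT20, in CPM, lowest at ZT8 and ZT12 in both replicates.

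Calls of 9 of these 12 clock genes were lost without ZT20 replicate 1, and Nr1d1, Nr1d2 and Tef kept theirs with any library left out (highest adjusted p = 0.0205). Bhlhe41 (adjusted p = 0.0509) and Hlf (0.0642) lay just outside the threshold. Clock (amplitude 0.16, adjusted p = 0.299) and Per1 (0.39, 0.237) did not pass.

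**Figure D2:**
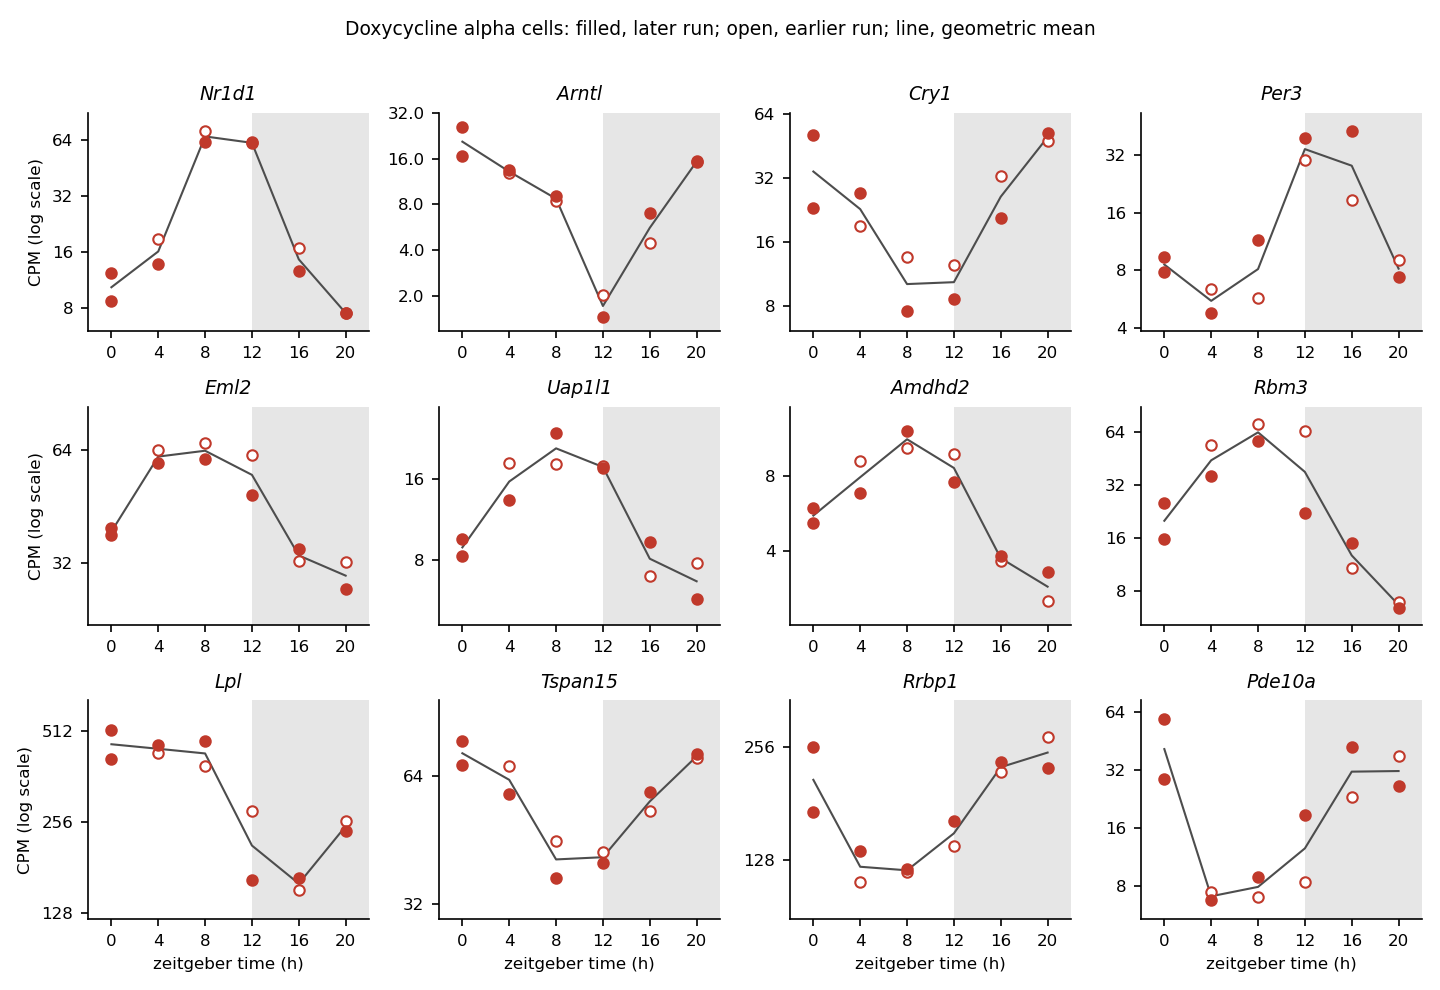
CPM (log axis) of 12 genes against zeitgeber time in h, with the dark phase shaded. Each point is 1 library, filled for the later and open for the earlier run, and lines join the geometric means of both. Nr1d1 is highest at ZT8 and ZT12, Arntl lowest at ZT12, and Amdhd2, Uap1l1, Eml2 and Rbm3 are high at ZT4 to ZT12.

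Outside the clock, the 24 genes with the lowest p and a mean of at least 5 CPM were mostly afternoon genes: 20 peaked between ZT4 and ZT10 and 21 in the light phase. Their amplitudes ran from 0.40 to 1.51. The first was Eml2 (chr7:19176421-19206482, plus strand), encoding a microtubule-associated protein of the EMAP family. It stood at 39.7 and 38 at ZT0, 64 and 59.2 at ZT4, 67.1 and 60.8 at ZT8, 62.2 and 48.7 at ZT12, 32.3 and 34.8 at ZT16 and 32.1 and 27.2 at ZT20, in CPM. All 6 libraries from ZT4 to ZT12 exceeded all 6 from ZT16 to ZT0, giving an amplitude of 0.60 ± 0.06 and a peak at ZT 7.2 ± 0.361 h (adjusted p = 0.00238). Cryba2, a beta-crystallin, rose from 59.3 and 51.0 CPM at ZT0 to 92.5 and 72.1 at ZT8 and fell to 34.4 and 29.1 at ZT16 (amplitude 0.64 ± 0.07, peak at ZT 5.98 ± 0.461 h, adjusted p = 0.00899). Syt1, a calcium sensor of vesicle fusion, stood between 8.51 and 11.4 CPM at ZT4 and ZT8 and at or below 7.03 CPM at all other times (amplitude 0.73 ± 0.09, peak at ZT 4.96 ± 0.475 h).

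Of these 24 genes, 21 lost their call without ZT20 replicate 1, with adjusted p between 0.0519 and 0.0682, while Eml2, Uap1l1 and Syt1 kept theirs with any library left out. None of the 24 was called in the later run alone, where no gene passed. Their peaks in the 2 runs differed by at most 1.55 h, though the 24 were chosen on both runs together, which favours such agreement.

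Amdhd2, Uap1l1 and Nagk, genes of amino sugar handling, peaked together in the afternoon. This pathway makes UDP-N-acetylglucosamine, the donor for protein glycosylation, and salvages its sugar. Amdhd2 (chr17:24155833-24163766, minus strand), the deacetylase that returns N-acetylglucosamine 6-phosphate to glucosamine 6-phosphate and whose promoter holds the 3 E-boxes above, stood at 5.97 and 5.18 at ZT0, 9.21 and 6.83 at ZT4, 10.4 and 12.2 at ZT8, 9.84 and 7.58 at ZT12, 3.67 and 3.83 at ZT16 and 2.52 and 3.29 at ZT20, in CPM. All 6 libraries from ZT4 to ZT12 lay above all others, with the 4 at ZT16 and ZT20 lowest. The amplitude was 0.94 ± 0.11, or 3.7-fold from trough to peak, with a peak at ZT 7.49 ± 0.447 h (adjusted p = 0.00899, and 0.0519 without ZT20 replicate 1).

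Uap1l1 (chr2:25359889-25365682, minus strand), a relative of the pyrophosphorylase that makes UDP-N-acetylglucosamine, stood at 9.58 and 8.29 at ZT0, 18.3 and 13.3 at ZT4, 18.1 and 23.7 at ZT8, 17.8 and 17.6 at ZT12, 6.99 and 9.36 at ZT16 and 7.77 and 5.73 at ZT20, in CPM. Its 6 libraries from ZT4 to ZT12 again exceeded the rest (amplitude 0.87 ± 0.09, peak at ZT 8.06 ± 0.418 h, adjusted p = 0.00657). Nagk, the N-acetylglucosamine kinase of the salvage route, had a smaller swing of 0.34 ± 0.05 with a peak at ZT 6.97 ± 0.595 h (adjusted p = 0.0153, up to 0.0813 with 1 library left out, the call being lost without ZT8 replicate 2 or ZT20 replicate 1). With the acinar covariate Nagk stood at 0.0541. In the list of 12 amino sugar genes, which leaves out Uap1l1, Amdhd2 and Nagk were the 2 called (16.7%, against 1.81% of all genes), and peaks were split evenly, 6 in each phase. Gnpda2, which deaminates glucosamine 6-phosphate, had an amplitude of 0.31 at ZT 7.53 without passing (adjusted p = 0.0834).

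Called genes of the cold and heat responses peaked in opposite phases. Rbm3 and Cirbp encode RNA-binding proteins that are induced by mild cold, and both were called with daytime peaks. Rbm3 (chrX:8138975-8145880, minus strand) stood at 15.8 and 25.3 at ZT0, 54.1 and 36.1 at ZT4, 71.5 and 56.8 at ZT8, 65 and 22.1 at ZT12, 10.7 and 15 at ZT16 and 6.93 and 6.34 at ZT20, in CPM. Both ZT20 libraries were the lowest and both ZT8 libraries among the highest 3, and the amplitude of 1.51 ± 0.17 at ZT 7.32 ± 0.442 h was the largest of the 24 (adjusted p = 0.00899). Cirbp had an amplitude of 1.12 ± 0.14 at ZT 6.54 ± 0.486 h, although its ZT4 libraries were far apart at 146 and 45.9 CPM. All 19 heat shock chaperones had their fitted peak in the dark phase, against 8152 of 16017 for all genes, and 4 were called (21.1%, against 1.81%): Fkbp4, Hspa4l, Stip1 and Hspa8, the last named after its value was seen. The median amplitude of all 19 was 0.49.

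Hspa8, the constitutive HSP70 chaperone, ranged from 308 CPM at ZT4 replicate 1 to 1125 CPM at ZT20 replicate 2 (amplitude 0.66 ± 0.13, peak at ZT 18.4 ± 0.766 h, adjusted p = 0.0481). Its 2 libraries were far apart at ZT4 (308 and 653 CPM) and ZT16 (1056 and 616 CPM). The call of Hspa8 was not followed through the fits that left out 1 library or held the acinar covariate. Stip1, which links HSP70 to HSP90, peaked at ZT 19.1 ± 0.755 h with an amplitude of 0.58 ± 0.11, and the earlier run alone gave an amplitude of 0.81 and the later 0.36. Fkbp4, an HSP90 co-chaperone of steroid receptors, peaked at ZT 19.4 and Hspa4l, an HSP110 family member, at ZT 18.8. Stip1, Fkbp4 and Hspa4l each lost its call in 7 to 9 of the 12 fits that left out 1 library, with adjusted p up to 0.16. With the acinar covariate Stip1 (0.0847) and Hspa4l (0.0614) no longer passed.

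Several called genes of the endoplasmic reticulum peaked at night. All 20 unfolded protein response genes had their fitted peak in the dark, against 8152 of 16017 for all genes, with a median amplitude of 0.29. Of the 20, 2 were called (10.0%, against 1.81%) and 18 did not pass. Hyou1, an ER chaperone of the HSP70 class, was low at ZT8 (237 and 286 CPM) and ZT12 (262 and 245 CPM) and highest at ZT20 (451 and 429 CPM), with an amplitude of 0.43 ± 0.07 at ZT 20.7 ± 0.588 h (adjusted p = 0.0153, and 0.082 without ZT20 replicate 1). Creld2, an ER stress-inducible protein, peaked at ZT 18.5 (adjusted p = 0.049), and its call was lost in 9 of the 12 fits that left out 1 library. Rrbp1 (chr2:143947395-144011263, minus strand), a ribosome-binding protein of the rough ER, stood at 172 and 255 at ZT0, 112 and 135 at ZT4, 119 and 122 at ZT8, 139.8 and 163 at ZT12, 219 and 233 at ZT16 and 271 and 224 at ZT20, in CPM. Its 4 night libraries at ZT16 and ZT20 exceeded all 6 from ZT4 to ZT12 (amplitude 0.58 ± 0.08, peak at ZT 19.2 ± 0.509 h). P4ha2, a subunit of collagen prolyl 4-hydroxylase in the ER, peaked at ZT 18 ± 0.517 h with an amplitude of 0.69 ± 0.09.

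Among the 24 were also 2 genes of translation initiation. Eif4b, a cofactor of the eIF4A helicase, was the most abundant of the 24. It stood at 341 and 256 at ZT0, 350.2 and 364 at ZT4, 489 and 588 at ZT8, 576 and 595 at ZT12, 276 and 332 at ZT16 and 266 and 256 at ZT20, in CPM. The 4 libraries at ZT8 and ZT12 lay above all others, and the amplitude was 0.61 ± 0.08 with a peak at ZT 9.54 ± 0.507 h (adjusted p = 0.0094). Eif2a, an initiation factor that can bring the first tRNA to the ribosome, peaked at ZT 8.8 ± 0.493 h with an amplitude of 0.57 ± 0.07. Serp1 overlaps it on the other strand, is itself not rhythmic (adjusted p = 0.789) and cannot be separated without strand.

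Called genes of fat uptake and oxidation peaked by day. Of the 17 genes of fasting and fat oxidation, 16 had their fitted peak in the light phase, against 49.1% of all genes, with a median amplitude of 0.39. Of the 17, 2 were called (11.8%, against 1.81%) and 15 did not pass. Slc25a20, the carnitine-acylcarnitine carrier of mitochondria, peaked at ZT 9.4 ± 0.61 h with an amplitude of 0.53 ± 0.09 (adjusted p = 0.0174). Cpt1a, which forms acylcarnitine, peaked at ZT 9.91 ± 0.703 h with an amplitude of 0.71 ± 0.13 (adjusted p = 0.0322). Slc25a20 lost its call when ZT8 replicate 2, ZT12 replicate 2 or ZT20 replicate 1 was left out, reaching 0.103. Cpt1a lost its call in 8 of the 12 fits that left out 1 library, these 3 among them, reaching 0.138. ZT8 replicate 2 held the highest level of both genes (29.9 and 90.4 CPM) and also the highest acinar sum. With the acinar covariate both still passed, at 0.0491 and 0.0458.

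Lpl (chr8:68880491-68907448, plus strand), the lipase that frees fatty acids from circulating lipoproteins, stood at 414 and 517 at ZT0, 433 and 462 at ZT4, 391 and 476 at ZT8, 279 and 165 at ZT12, 153 and 168 at ZT16 and 258 and 239 at ZT20, in CPM. It was high in all 6 libraries from ZT0 to ZT8 and low at ZT16 and in ZT12 replicate 2, with an amplitude of 0.82 ± 0.10 and a peak at ZT 3.63 ± 0.482 h (adjusted p = 0.0094). Acaa2, a thiolase of mitochondrial fat oxidation, peaked at ZT 8.76 ± 0.507 h with an amplitude of 0.74 ± 0.10, and its call was lost without ZT8 replicate 2 or ZT20 replicate 1 (adjusted p up to 0.0623). Auh, a mitochondrial hydratase of leucine breakdown, peaked at ZT 6.11 with an amplitude of 0.40. Hacl1, a peroxisomal lyase that shortens branched fatty acids, is annotated as 2 overlapping genes that share reads and is therefore uncertain, and the more abundant of them peaked at ZT 7.39 with an amplitude of 0.82. Pklr, the liver-type pyruvate kinase, peaked at ZT 6.49 with an amplitude of 0.59. Hcn3, at a mean of 18.7 CPM against 20.2 for Pklr, overlaps it on the other strand and was not called (adjusted p = 0.994).

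Further afternoon genes of the 24 were Porcn, the acyltransferase that modifies Wnt proteins (peak at ZT 6.27, amplitude 0.56), and Gas6, the ligand of the TAM receptor kinases (ZT 7.86, 0.91). Arsg, a lysosomal sulfatase, had an amplitude of 1.13 at ZT 6.33, but it overlaps Slc16a6 on the other strand. Dmrtc1a peaked at ZT 5.83 with an amplitude of 1.10.

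The largest amplitudes outside the clock, among called genes of at least 5 CPM, ran from 0.98 to 1.51, and 8 of these 10 genes peaked between ZT4 and ZT10. All 10 lost their call without ZT20 replicate 1. The main exception was Pde10a (chr17:8525372-8986648, plus strand), a phosphodiesterase that breaks down cyclic nucleotides. It stood at 28.7 and 59.2 at ZT0, 7.42 and 6.7 at ZT4, 7 and 8.89 at ZT8, 8.36 and 18.8 at ZT12, 23.3 and 42.5 at ZT16 and 37.8 and 26.6 at ZT20, in CPM. All libraries at ZT4 and ZT8 were under 9 CPM and those at ZT16, ZT20 and ZT0 were above 23 CPM, giving an amplitude of 1.32 ± 0.20 at ZT 19.6 ± 0.593 h (adjusted p = 0.0193, up to 0.116 without ZT4 replicate 1, ZT8 replicate 2 or ZT20 replicate 1). Ifit3, an interferon-induced gene, was the other exception, and its call was lost in 10 of the 12 fits that left out 1 library and with the acinar covariate (adjusted p = 0.0641). All 5 libraries of the earlier run, at 7.33 to 22.9 CPM, lay above all 7 of the later run, which reached 4.47 CPM. Espnl, a relative of the actin bundler espin, had an amplitude of 1.16, and Nsg2, a neuronal vesicle protein, of 0.98. The glutathione transferase Gstm7 peaked at ZT 6.75, and its call was lost in 6 of the 12 fits that left out 1 library (adjusted p up to 0.123) and with the acinar covariate (0.0578).

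**Figure D3:**
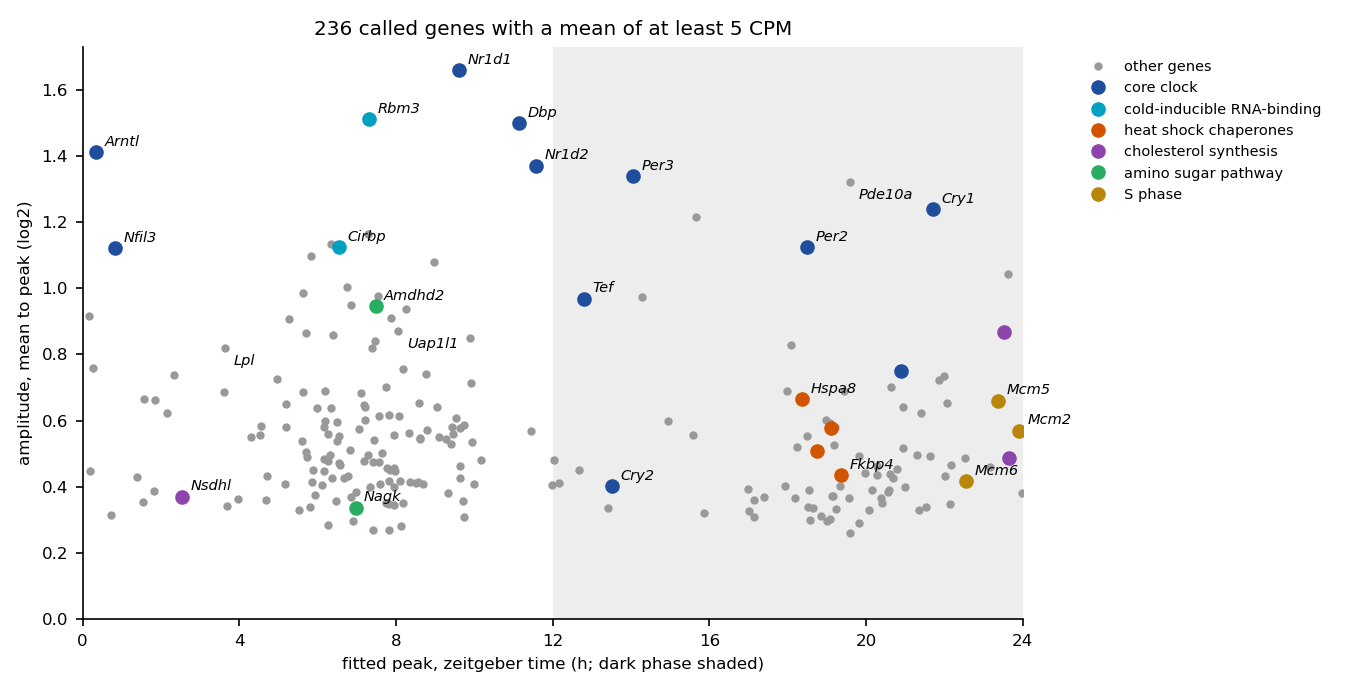
Amplitude (log2, mean to peak, vertical axis) against fitted peak (zeitgeber time in h, horizontal axis) of the 236 called genes with a mean of at least 5 CPM, 1 point per gene, coloured by gene list, with the dark phase shaded. Clock genes span the day, amino sugar and cold-inducible genes sit near ZT7, heat shock chaperones near ZT19, and sterol and S phase genes around lights on.

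In 19 of 20 genes of cholesterol synthesis the fitted peak lay within 6 h of ZT0, against 9039 of 16707 genes in the fit of both treatments, with a median amplitude of 0.32. Of the 20, 3 were called (15%, against 1.81%) and 17 did not pass. Nsdhl, a dehydrogenase of the pathway, peaked at ZT 2.55 ± 0.73 h with an amplitude of 0.37 ± 0.07 (adjusted p = 0.0433), and its call was lost in 11 of the 12 fits that left out 1 library and with the acinar covariate (0.0966).

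Night and dawn also held genes of other kinds. Tspan15 (chr10:62185396-62231251, minus strand), a tetraspanin partner of the protease ADAM10, stood at 68.1 and 77.4 at ZT0, 67.8 and 58.2 at ZT4, 45.1 and 36.9 at ZT8, 42.6 and 40 at ZT12, 53.1 and 58.7 at ZT16 and 70.6 and 72.1 at ZT20, in CPM. Its libraries at ZT8 and ZT12 were the lowest 4, with an amplitude of 0.49 ± 0.06 and a peak at ZT 22.5 ± 0.455 h (adjusted p = 0.00899). Of 21 S phase genes, 3 were called (14.3%, against 1.81% of all genes), all subunits of the MCM helicase that opens DNA for replication: Mcm2 at ZT 23.9 (amplitude 0.57 ± 0.08, adjusted p = 0.01), Mcm5 at ZT 23.4 and Mcm6 at ZT 22.5. Without ZT20 replicate 1 or ZT12 replicate 2 all 3 lost their call. Over all 12 fits that left out 1 library, Mcm2, Mcm5 and Mcm6 lost it in 2, 4 and 7. The adjusted p reached 0.0524, 0.0737 and 0.107, and Mcm6 was also lost with the acinar covariate (0.0748). The summed level of the S phase list was highest at ZT0 replicate 2, at 400 CPM against 234 to 300 CPM in the other libraries. None of 20 G2/M genes was called. Slc2a1, the glucose transporter GLUT1, peaked at ZT 22.2 with an amplitude of 0.46 (adjusted p = 0.037) and was the 1 called of 16 glucose metabolism genes (6.25%), its call being lost in 9 of the 12 fits that left out 1 library and with the acinar covariate (0.0698).

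Around dusk, 2 of 11 glucocorticoid-responsive genes were called (18.2%, against 1.81% of all genes). Zbtb16, a zinc finger repressor, peaked at ZT 13.8 ± 0.555 h and rested on ZT12 replicate 2, at 9.98 CPM against at most 5.31 CPM in any other library (adjusted p = 0.0141, and 0.0732 without it). Fkbp5, a steroid receptor co-chaperone, peaked at ZT 12 with an amplitude of 0.48 (adjusted p = 0.0407). Among amino acid response genes, Aldh1l2, a mitochondrial enzyme of folate metabolism, was the 1 called of 14 (7.14%), with an amplitude of 0.85 ± 0.13 at ZT 9.89 ± 0.55 h (adjusted p = 0.0142). D10Wsu102e overlaps it on the other strand. Klf10 was the 1 called of 10 clock output genes (10.0%), at ZT 9.09 (adjusted p = 0.0323). With 1 library left out, the calls of Fkbp5 and Klf10 were lost in 9 and 6 of the 12 fits and with the acinar covariate (0.0635 and 0.0698), and that of Aldh1l2 without ZT8 replicate 2 or ZT20 replicate 1 (adjusted p up to 0.0728).

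Of 10 alpha cell identity genes 1 was called (10.0%, against 1.81%). All 10 had their fitted peak in the light phase, against 49.1% of all genes, with a median amplitude of 0.15. The called gene was the amino acid transporter Slc38a5, which fell from 256 and 158 CPM at ZT4 to 83.2 and 79.5 CPM at ZT16 (amplitude 0.54 ± 0.11, adjusted p = 0.0483, up to 0.162 with 1 library left out and 0.0748 with the acinar covariate). Gcg ranged from 222308 to 442343 CPM without passing (amplitude 0.22 ± 0.09, adjusted p = 0.36). In bulk samples, fewer cells of a type and less RNA per cell cannot be told apart.

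The rhythms were then compared with those in alpha cells of control mice, which asks whether beta-cell loss with doxycycline changed the alpha cell clock. No gene passed the test of a difference in rhythm (0 of 16707, 0%), with 501 (3%) at an unadjusted p under 0.05, and 0 passed with limma or DESeq2. A p that misses the threshold does not show that the rhythms are alike. The 290 genes called in doxycycline cells peaked at similar times in the control libraries, which had no part in the call: 264 (91.0%) lay within 3 h, against 49.8% of all genes, and the median difference was 0.999 h against 3.02 h. Control libraries had the same runs and, except at ZT16 replicate 1, the same lanes at each time. This agreement therefore does not separate time of day from lane. Their median amplitude was 0.57 in doxycycline and 0.39 in control cells, though it was on the doxycycline values that they were chosen.

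For the 20 clock genes the median absolute difference in peak between treatments was 0.66 h. Nr1d1 peaked at ZT 9.6 ± 0.316 h in doxycycline and at ZT 9 ± 0.305 h in control cells, with amplitudes of 1.66 ± 0.14 and 1.72 ± 0.14. Arntl peaked at ZT 0.355 ± 0.559 h and ZT 0.597 ± 0.588 h. Amdhd2 had an amplitude of 0.95 ± 0.11 with doxycycline and 0.61 ± 0.10 in control cells, a difference that did not hold after adjustment (unadjusted p = 0.0165, adjusted p = 0.999). Eml2 had amplitudes of 0.60 ± 0.06 and 0.39 ± 0.06, and Rbm3 of 1.51 ± 0.25 and 1.46 ± 0.25.

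**Figure D4:**
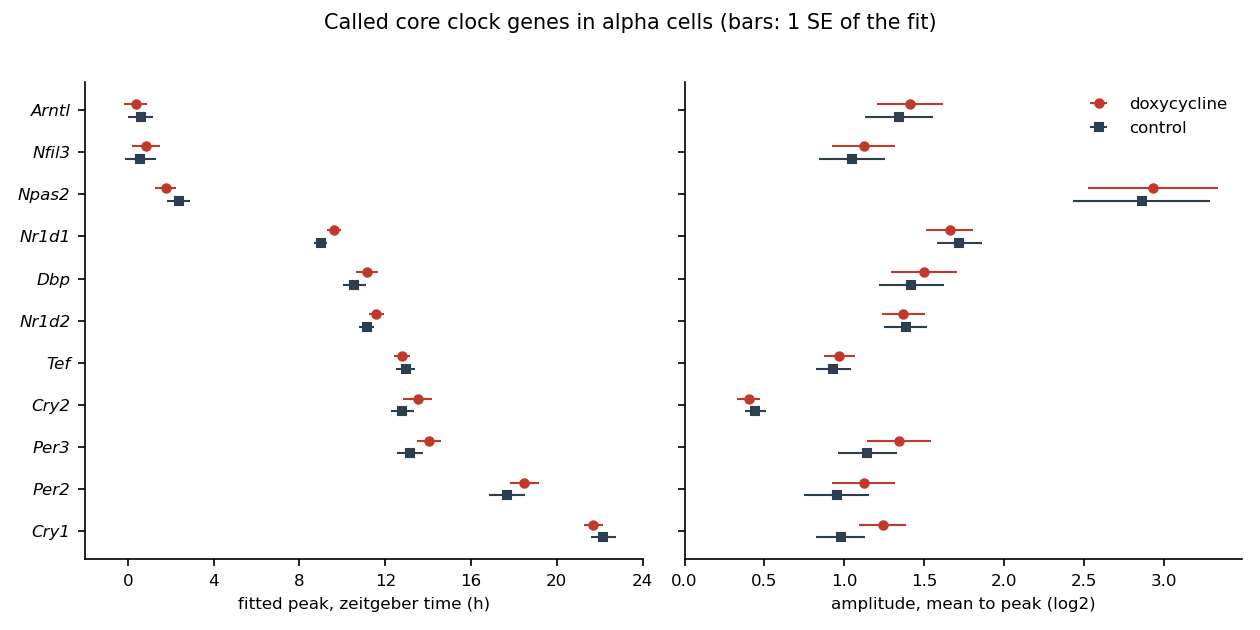
Fitted peak (zeitgeber time in h, left) and amplitude (log2, mean to peak, right) of 11 called core clock genes in alpha cells of doxycycline (red circles) and control mice (dark squares), with bars of 1 SE of the fit. The 2 marks of each gene lie close together, those of Nr1d1 at ZT 9.6 and ZT 9.

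Against beta cells that survived in doxycycline mice, 10 of 17512 genes differed in rhythm (0.0571%), and 1479 (8.45%) had an unadjusted p under 0.05. In 6 of these 10 the peaks of the 2 cell types lay over 9 h apart. Stard4, a carrier of cholesterol inside cells, stood in alpha cells at 34.8 and 28 at ZT0, 31.5 and 27 at ZT4, 23.4 and 22.7 at ZT8, 19.3 and 17.4 at ZT12, 24.5 and 22.5 at ZT16 and 27.2 and 29.5 at ZT20, in CPM. In beta cells it stood at 29.8 and 24 at ZT0, 19.8 and 24.4 at ZT4, 33.1 and 43.9 at ZT8, 42.1 and 44.2 at ZT12, 34.1 and 38 at ZT16 and 17.2 and 25.4 at ZT20, in CPM. Alpha cells were lowest at ZT12, where beta cells were highest. The amplitude was 0.38 ± 0.07 at ZT 0.0144 ± 0.735 h in alpha and 0.55 ± 0.07 at ZT 11.7 ± 0.505 h in beta cells (adjusted p of the difference = 0.00207). Without any 1 library the difference still passed, at 0.0194 at most.

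Fitted peaks of the cholesterol synthesis list were also opposed. In 18 of 20 genes the fitted peak lay within 6 h of ZT0 in alpha cells and within 6 h of ZT12 in beta cells, against 21.0% of all genes, and 17 of 20 differed at an unadjusted p under 0.05, against 8.45% of all genes. After adjustment, 2 passed, among them Hmgcs1, the synthase at the head of the pathway. It stood in alpha cells at 49.5 and 36.6 at ZT0, 45.2 and 53.8 at ZT4, 35.4 and 31.8 at ZT8, 33.7 and 33 at ZT12, 39.8 and 43.9 at ZT16 and 41.1 and 52.4 at ZT20, in CPM. In beta cells it stood at 70.8 and 48.9 at ZT0, 31.3 and 77.5 at ZT4, 73.9 and 93.2 at ZT8, 87.9 and 142 at ZT12, 75.9 and 138 at ZT16 and 41.3 and 64.8 at ZT20, in CPM. Both alpha libraries at ZT12 lay below both beta libraries. The peak was at ZT 23 ± 1.41 h in alpha and at ZT 12.5 ± 0.473 h in beta cells (adjusted p of the difference = 0.0105). Between treatments in alpha cells, none of the 20 had peaks over 6 h apart, against 26.3% of all genes. All 20 had a later fitted peak with doxycycline than in control cells, by a median of 2.77 h against 0.0953 h for all genes. Of the 20, 3 had an unadjusted p under 0.05, against 3% of all genes, and none passed after adjustment.

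The beta cell libraries of these genes were uneven. At ZT4, Hmgcs1 differed between the 2 beta cell libraries by more than 2-fold. Without ZT12 replicate 2 of the alpha cells Hmgcs1 and B3gnt9 were lost (adjusted p = 0.0547) and 3 genes in all passed. Without ZT0 replicate 1 of the beta cells 29 genes passed. The count fell to 5 without ZT8 replicate 2 of the alpha or ZT20 replicate 1 of the beta cells, and to 6 without ZT8 or ZT12 replicate 1 of the alpha or ZT12 or ZT16 replicate 1 of the beta cells.

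**Figure D5:**
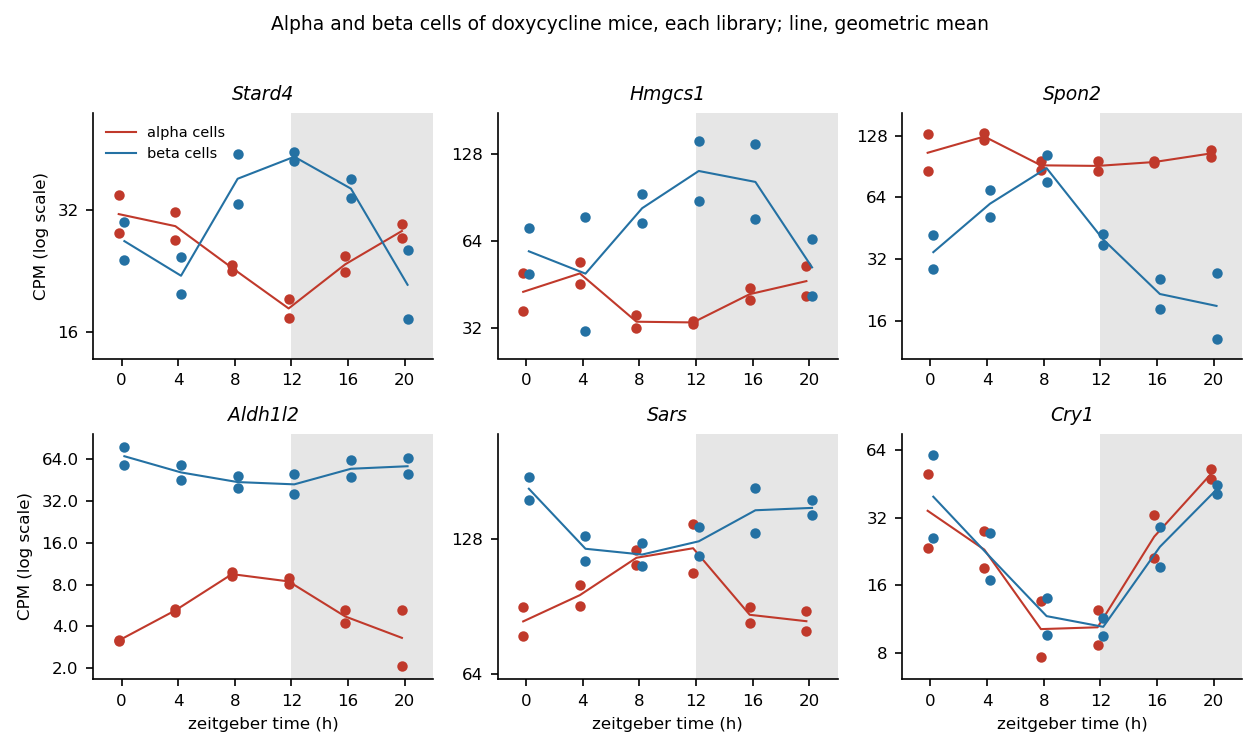
CPM (log axis) against zeitgeber time in h for 6 genes in alpha (red) and beta cells (blue) of doxycycline mice, with 1 point per library, lines through geometric means and the dark phase shaded. Stard4 and Hmgcs1 are low in alpha cells and high in beta cells at ZT12, while Cry1 runs together in both.

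Aldh1l2 and Sars, of folate metabolism and tRNA charging, had their peaks the other way round. Aldh1l2 peaked at ZT 9.91 ± 0.463 h in alpha and ZT 22 ± 1.39 h in beta cells, where it was also far more abundant (53.4 against 5.8 CPM; adjusted p of the difference in rhythm = 0.00705). Sars, the seryl-tRNA synthetase, was named after its values were seen, and peaked at ZT 9.75 ± 0.758 h and ZT 20.5 ± 1.04 h (adjusted p = 0.0397). Of the rest, Spon2, a secreted matrix protein, and Ctnnal1, an alpha-catenin relative, swung mainly in beta cells, with amplitudes of 1.10 ± 0.11 and 0.81 ± 0.09 against 0.21 ± 0.11 and 0.00 ± 0.09 in alpha cells. B3gnt9, a glycosyltransferase, peaked at ZT 7.98 ± 1.01 h in alpha and ZT 0.411 ± 0.489 h in beta cells, and Wnk2, a kinase of ion transport, at ZT 18.5 ± 1.18 h and ZT 8.98 ± 0.612 h. The predicted gene Gm30239 was also named after its values were seen, and was near 0 in alpha cells (mean 0.0301 CPM), where no peak could be placed.

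No clock gene differed between the cell types after adjustment, and 5 of 20 had an unadjusted p under 0.05. Cry1 had amplitudes of 1.23 ± 0.15 in alpha and 1.19 ± 0.15 in beta cells, with peaks at ZT 21.7 ± 0.447 h and ZT 22 ± 0.462 h. The widest gap among clock genes was in Nr1d1, whose amplitude was 1.66 ± 0.26 in alpha and 0.09 ± 0.25 in beta cells (unadjusted p = 0.000325, adjusted p = 0.111). Its beta cell libraries did not repeat, with 164 and 19.3 CPM at ZT4. The cold-inducible pair kept its daytime peak in both cell types, Rbm3 at ZT 7.34 ± 0.408 h and ZT 7.3 ± 0.537 h, and the 19 heat shock chaperones peaked a median of 0.47 h apart.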

How the data were processed

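The deposited estimated counts per gene for 42713 genes were used. Per the submitters' processing notes, bcl2fastq, STAR and GRCm38 were used, and the program that counted reads and its annotation are not given in the sources used here. Per the labels' protocols, libraries of poly(A) RNA were made with a TruSeq kit, of a type that does not mark strand. The authors' RPKM tables were not used. Gene symbols, coordinates and overlaps are those of the deposited tables. Besides the overlaps given with the genes, Cry2, Gnpda2, B3gnt9 and Hacl1 overlap D930015M05Rik, Guf1, D230025D16Rik and Btd on the other strand. Per3 overlaps Camta1 on the same strand. These neighbours were not called in doxycycline alpha cells, and reads from opposite strands could not be told apart. Samples were grouped by their titles. The members and gene lists were chosen with earlier results of these data known.

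Estimated counts were rounded and fitted with edgeR 4.0.16 (R 4.3.3): TMM scaling, filterByExpr with a minimum count of 10 and total of 15, and the quasi-likelihood F test of a 24 h cosine and sine beside a run term, on 8 residual degrees of freedom. Differences were tested as interactions of cosine and sine with treatment or cell type over 24 libraries. Benjamini-Hochberg adjustment was over all genes tested, with a threshold of 0.05. SEs came from the delta method. Depth, at 18746200 to 55987900 counts a library, limits genes of few CPM. The script was tested on simulated data. Alternatives used limma 3.58.1 (log2 CPM, prior count 2), DESeq2 1.42.0, other filters, runs and left-out libraries.

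Named genes were, by rule, all core clock genes, the 24 lowest p and 10 largest called amplitudes outside the clock at a mean of at least 5 CPM, the 3 lowest p of each of 25 lists, the 8 lowest p of each difference test, and Nr1d1, Arntl, Amdhd2, Gcg, Ins2, Sst and Ppy. Predicted genes were passed over, and some genes that the rule names are not reported here. No column of another series was found. Figures were drawn with matplotlib 3.10.9. The 2 libraries of a time differed by more than sampling noise (chi-square per degree of freedom of 24.3 to 95, and 57.6 at ZT0, where both come from 1 run), so no pair was taken for 1 library deposited again. This does not show that they are separate samples.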

Additional observations from a re-analysis of the deposited data

Results flagged for a closer look

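In 10 genes the daily rhythm of alpha cells differed from that of beta cells of doxycycline mice by the test of the difference itself (edgeR interaction, 24 libraries). Of these, 9 are named here. The adjusted p was 0.00207 for Stard4, 0.00705 for Aldh1l2, 0.0105 for Spon2, 0.0105 for Hmgcs1, 0.0134 for B3gnt9, 0.0249 for Wnk2, 0.0266 for Gm30239, 0.0354 for Ctnnal1 and 0.0397 for Sars. Stard4, Aldh1l2 and Spon2 kept their call with any library left out (highest adjusted p of 0.0194, 0.0399 and 0.0496), while Ctnnal1 lost it for 17 of the 24 and Wnk2 for 8. With the acinar level as a covariate 11 genes passed, all 10 among them. The abundance of Aldh1l2 and Spon2 also differed between the cell types: their means in alpha and beta cells were 5.8 and 53.4 CPM, and 103 and 44.5 CPM. The part of this difference in abundance in the rhythms was not tested.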

How the results depend on the processing

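The 290 rhythmic genes became 1186 with the DESeq2 likelihood ratio test, 126 without a run term, 39 in the earlier run alone, 0 in the later run alone (941 at an unadjusted p under 0.05), 6 with time as 6 levels, 997 when all 24 alpha libraries set the spread, and 143 with the acinar covariate. With 1 library left out they ranged from 8 (ZT20 replicate 1) to 396 (ZT0 replicate 2). Other scaling, limma, other filters and leaving out ZT0 gave 288 to 355. Of the 290, 287 were also called by DESeq2 and 277 by limma. The later run has 7 libraries and the earlier 5, so fewer samples enter those fits. Time as 6 levels gives no amplitude.

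The 10 differences from beta cells became 184 with DESeq2, 4 without a run term, and 0 in the later or the earlier run alone (445 and 1718 at an unadjusted p under 0.05). They ranged from 3 to 29 with 1 library left out. Differences from control alpha cells stayed at 0 in each alternative. Where either fit called a named gene, no alternative turned its peak by over 6 h. Over the settings other than leaving out a library, rhythms of named genes stayed on their side of the threshold in 1214 values, lost it in 162 and gained it in 36, and differences in 677, 23 and 32.

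With the replicate number, which marks the run from ZT4 on, as a block, 310 genes were rhythmic, 0 differed from control alpha cells and 67 differed from beta cells, 9 of the 10 among them. The correlation of deviations of same-numbered libraries ran from -0.464 to 0.162 between treatments. Between cell types it was positive at all 6 times, from 0.0849 to 0.39 and over 0.1 at 5, and 4 of the 5 times from ZT4 on matched their own number best. A pairing was accepted only if all times exceeded 0.1, so neither comparison was treated as paired, although these values hint at shared deviations between the cell types. Depth in the earlier run, at 18746200 to 25967400 counts, leaves few reads for genes under 1 CPM, and amplitudes there are imprecise.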

Other observations

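Several gene groups of alpha cells gave no call after adjustment in the doxycycline libraries. None of 14 exocytosis genes was called (median amplitude 0.17), and none of 12 genes of insulin and FOXO signalling (0.17), of which 10 had their fitted peak in the dark phase. None of 16 immediate early genes was called either (lowest adjusted p = 0.17). Their summed level lay at 2405 to 3994 CPM in 5 libraries, ZT0 replicate 2 and replicate 1 of ZT4, ZT12, ZT16 and ZT20, and at 703 to 991 CPM in the other 7. Of those 5, 4 belong to the earlier run, and the part of the run in these levels was not tested.

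The other islet hormones showed no called rhythm. Ppy, the pancreatic polypeptide gene, ranged from 19403 to 38694 CPM (amplitude 0.12 ± 0.12, adjusted p = 0.839) and Sst, the somatostatin gene, from 937 to 2103 CPM (amplitude 0.25 ± 0.12, adjusted p = 0.442). Mt2, a metallothionein, had an amplitude of 1.35 ± 0.26 at ZT 7.69 ± 0.739 h and lay just outside the threshold (adjusted p = 0.0509).

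Markers of other cells gave no call. The summed level was largest for 6 genes of delta, PP and epsilon cells (30233 to 58139 CPM), followed by 11 beta identity genes (1226 to 3876 CPM). It was lower for 15 genes of macrophages and dendritic cells (68.4 to 151 CPM) and 5 of duct cells (74.2 to 204 CPM), 4 of them tested. Single genes weighed heavily in these 2 sums, C1qa at 25.5 to 67.9 CPM and Spp1 at 73.2 to 204 CPM, both TMM-scaled unlike the sums. The 9 genes of endothelial cells, 6 of them tested, summed to 14.2 to 27.2 CPM, and 9 of stellate cells and fibroblasts to 52.3 to 110.1 CPM. Of 16 type I interferon genes 1, Ifit3, was called. Their summed level ran from 101 to 513 CPM, and all 5 libraries of the earlier run, from 234 CPM up, lay above all 7 of the later, which reached 188 CPM.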
